A study of Cannabis sativa with 6 samples.

Results

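The subject is the male flower of feral hemp (Cannabis sativa) as measured in 3 RNA sequencing libraries out of 6 in the series, and above all what set the male labelled Merick apart from the other males. The libraries were chosen by their label for sex, and setting Merick against the other males was chosen with earlier results of these data known. The other 3 libraries are female flowers and enter here only where a male list is set beside them. Each sex has 1 library from each of 3 Nebraska locations, Knox, Madison and Merick, so the Merick, Knox and Madison males are single libraries. All plants were potted and grown indoors, and a shortened day was used to bring them to flower. The sources used here give neither the flower stage nor whether a library held 1 plant or several. Location, plant and flower stage can therefore not be told apart in any difference below, and no difference between males has a replicate check.

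Hemp has separate male and female plants, with an X and Y pair of sex chromosomes in males. A male flower bears sepals and stamens. In the anther, the inner layer called the tapetum feeds the developing pollen and supplies the pollen coat, and the RNA content of an anther changes greatly as pollen matures. Female flowers bear glandular hairs that make cannabinoids, and male flowers bear fewer. In RNA from a whole flower, fewer cells of a type and less RNA per cell cannot be told apart.

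Gene counts summed to between 40334171 (Knox male) and 46045338 (Merick male), and between 21784 and 22015 genes had a count in a male library. Levels are counts scaled to 1000000 gene counts per library (CPM), without correction for transcript length, so ranks between genes are ranks of reads. At 1 CPM the Knox male, the smallest of the males, held 40 counts, for which the exact Poisson 95% interval is 0.71 to 1.35 CPM. At 100 CPM the interval is 96.9 to 103 CPM, and these intervals cover counting error only. Genes with a mean of at least 1 CPM over the males were compared, 17672 in all. Of these, 16364 are in the NCBI RefSeq gene table of the Pink pepper assembly, which gives a gene's class and chromosome but no description. The label could for that reason not be checked against named stamen or pollen genes, and most genes below are known by identifier alone.

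Reads were spread over many genes in each male, and the leading genes were mostly different in Merick. The 10 genes with the highest mean level held 2.69% of gene counts in the Merick male, 4.08% in the Knox male and 3.84% in the Madison male, a mean of 3.54% ± 0.75 (SD, n = 3). Each library's own 10 leading genes held 4.44%, 4.59% and 4.14% in the same order, so the Merick male was about as concentrated as the others but on other genes. Among the 50 leading genes of each library, 39 were shared by Knox and Madison, 12 by Merick and Knox, 14 by Merick and Madison, and 9 by all 3 males.

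LOC115704460 had the highest mean. It had 3623 CPM in the Merick male, 11326 in the Knox male and 6855 in the Madison male, and at no more than 3.93 CPM in any female. It was the leading gene of the Knox and Madison males, and the gene table does not hold it. LOC115719034, a protein-coding gene on chromosome 2, stood at 5944, 3617 and 3655 CPM in the order Merick, Knox and Madison. Its female levels of 3955 to 4046 CPM lay between those male values, so this gene was abundant in every library.

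LOC115695573, protein coding on chromosome 6, showed another pattern, with the Knox male apart. It had 3480 CPM in the Merick male and 3271 in the Madison male but at 869 in the Knox male. LOC115699586, listed as a miscellaneous RNA on chromosome 8, had 2077 CPM in the Merick male, 3035 in the Knox male and 3434 in the Madison male. LOC115714527, protein coding on chromosome 4, was the leading gene of the Merick male at 7427 CPM, against 567 CPM in Knox and 869 in Madison. LOC115707560 was even among the males and is described with the even genes. The other 4 of the 10 genes, LOC115721947, LOC115699051, LOC115724825 and LOC115723245, were abundant in Knox and Madison and far lower in Merick, and are described with the genes low in Merick. Of the 50 genes with the highest mean, 13 were at least 100 times higher in every male than in any female. In all, 30 of the 50 were higher in every male than in any female. Ranking by the male mean favours both counts. Over all compared genes, the Knox and Madison males were both above every female for 34.1%, and the Merick male was above every female for 40.6%. The shares of all compared genes that met either criterion in every male were not counted, so nothing is read from the 13 or the 30.

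**Figure D1:**
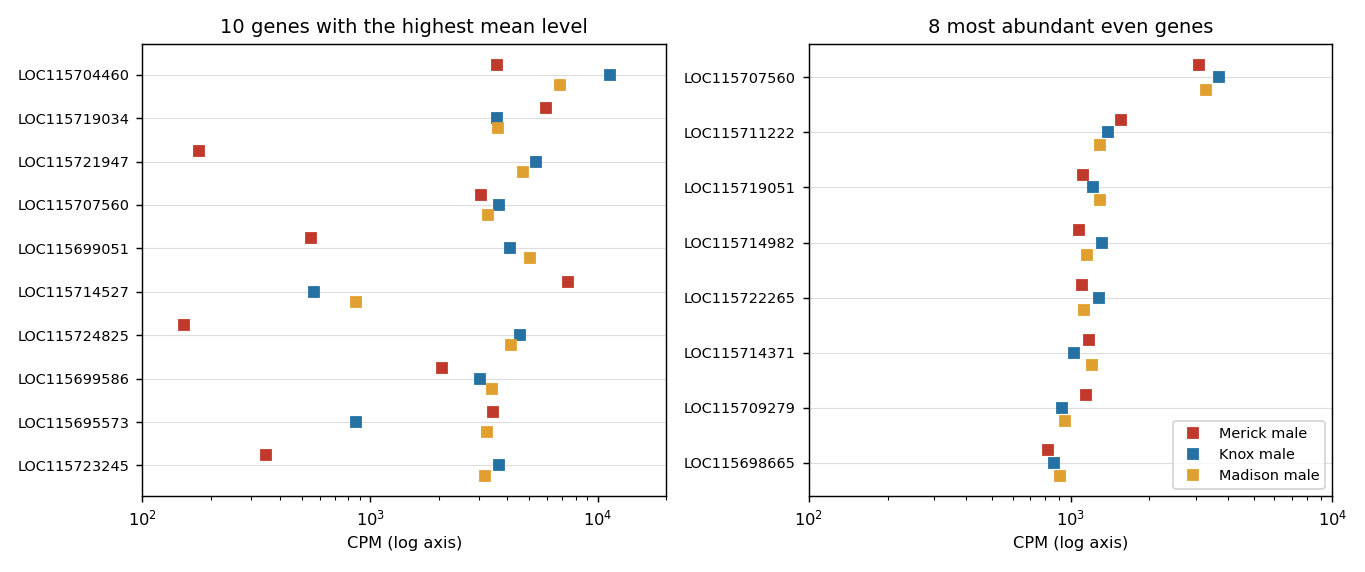
Levels in each male library (CPM, log axis) of the 10 genes with the highest mean and of the 8 most abundant even genes, with 1 square per library. The Merick square lies far to the left of the others for LOC115721947 and LOC115724825 and far to the right for LOC115714527, while the 3 squares lie close together for each even gene.

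A gene was called even where its highest male level exceeded its lowest by at most 25%, which held for 1756 of 17672 genes (9.94%). Even genes had a median of 37.7 CPM, against 21.9 CPM over all compared genes. Their part was 12.2% of the 9951 genes between 10 and 100 CPM and 14.7% of the 2125 genes between 100 and 1000 CPM. It was 9.59% of the 73 genes at 1000 CPM or more and 4.06% of the 5523 genes below 10 CPM. Counting error is relatively larger below 10 CPM, and its part in this was not tested. Together the even genes held 12.5% of gene counts in the Merick male, 12.7% in the Knox male and 12.5% in the Madison male, a likeness that the criterion sets. They held 10.04% to 11.7% in the female libraries, which the criterion did not use. At the limit itself lay LOC115698733, just inside with 33.3, 26.6 and 28.02 CPM in Merick, Knox and Madison, and LOC115716436, just outside with 51.1, 42.3 and 40.9 CPM.

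The most abundant even gene was also a gene nearly absent from females. LOC115707560, protein coding on chromosome 1, had 3083 CPM in the Merick male, 3683 in the Knox male and 3291 in the Madison male, while the females stood at 0.21 to 1.26 CPM. Its mean was 3352 ± 305 CPM (SD, n = 3), and the 3 males overlap with no female. It is the 1 gene among the 10 most abundant that was even.

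The other 7 named even genes were present in every female too. LOC115711222 on chromosome 3 had 1553 CPM in the Merick male, 1387 in the Knox male and 1290 in the Madison male. LOC115719051 on chromosome 2 stood at 1118, 1220 and 1300 CPM and LOC115714982 on chromosome 3 at 1081, 1321 and 1159 CPM in the same order. The order of the 3 males differed from gene to gene. LOC115722265 on chromosome 9 stood at 1107, 1289 and 1127 CPM, below the 2303 to 3845 CPM of the females. LOC115714371 on chromosome 4 stood at 1178, 1029 and 1209 CPM, above the 420 to 470 CPM of the females. LOC115698665 on chromosome 8 was the most even of the 8, at 821, 863 and 911 CPM, within 1.11-fold. LOC115709279 on chromosome 3 was the widest, at 1142, 928 and 950 CPM. All 7 are listed as protein coding. Which genes count as even depends on the scaling: with trimmed mean of M-values (TMM) scaling 1773 genes were even, of which 1373 were among the 1756.

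The Merick male lay farther from both other males than these lay from each other. The median size of the log2 ratio over the 17672 genes was 0.82 between Merick and Knox, 0.77 between Merick and Madison and 0.34 between Knox and Madison. Within 2-fold lay 57.2% of genes for Merick and Knox, 60.1% for Merick and Madison and 83.5% for Knox and Madison. Past 4-fold, 2196 genes (12.4%) were higher in Merick than in Knox and 1383 (7.83%) were lower. Against Madison, 1707 (9.66%) were higher in Merick and 1187 (6.72%) were lower. Between Knox and Madison, 444 genes (2.51%) were higher in Knox and 609 (3.45%) were higher in Madison. Of the 444 genes higher in Knox, the Merick male lay at or above the Knox level in 118, at or below the Madison level in 132 and between them in 194. Of the 609 genes higher in Madison, it lay at or above the Madison level in 284, at or below the Knox level in 77 and between them in 248.

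**Figure D2:**
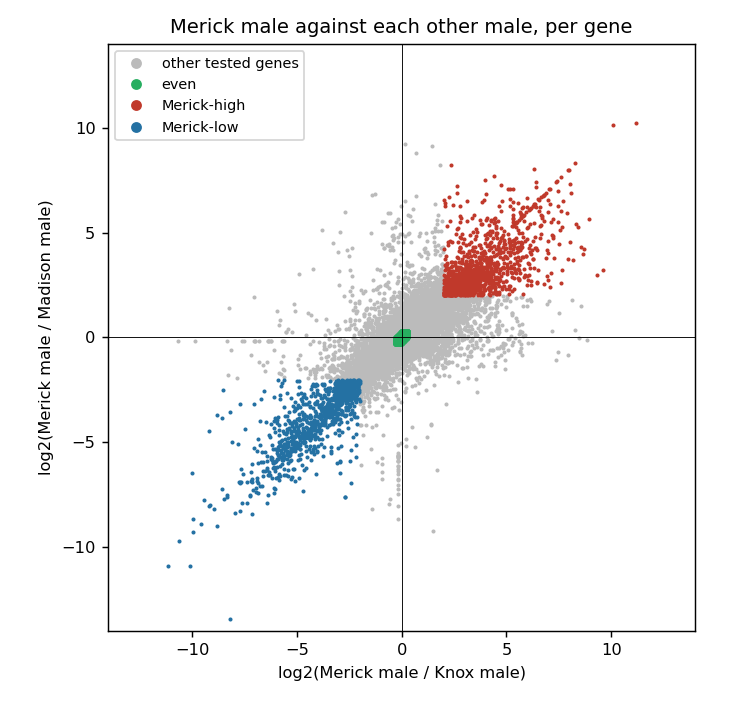
Log2 ratio of the Merick male to the Knox male (horizontal axis) and to the Madison male (vertical axis), with 1 point for each of 17672 genes. The 1276 Merick-high genes fill the upper right, the 955 Merick-low genes the lower left, and the 1756 even genes the centre; few genes lie far out in the other corners.

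Genes were called Merick-high where the Merick male was at least 4 times the higher of Knox and Madison, and Merick-low where it was at least 4 times below the lower. A level under that of 3 counts in its library was set to 3 counts for this call. The choice of genes uses the same values that are then described, so their direction is not a finding. Merick-high held 1276 genes (7.22% of those compared) and Merick-low 955 (5.4%). Merick-high genes were mostly of low or middle level, with a median of 19.2 CPM in the Merick male, 1.72 in the Knox male and 2.35 in the Madison male. Merick-low genes had medians of 2.52 CPM in Merick, 38.7 in Knox and 34.5 in Madison. Over all compared genes the medians were 21.99, 19.9 and 19.02 CPM.

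The lists differed in how they were spread over mean level, which the choice in part sets. For a Merick-low gene both Knox and Madison raise the mean over the males, and for a Merick-high gene Merick alone does. Genes at 1000 CPM or more numbered 76 in the Merick male, 71 in the Knox male and 80 in the Madison male. Of the 73 genes with a mean of at least 1000 CPM, 19 (26.03%) were Merick-low and 5 (6.85%) were Merick-high. Of the 5523 genes with a mean under 10 CPM, 331 (5.99%) were Merick-low and 699 (12.7%) were Merick-high. The Merick-high genes together made up 12.2% of gene counts in the Merick male, 1.30% in the Knox male and 1.75% in the Madison male. The Merick-low genes made up 1.26%, 15.2% and 14.8% in the same order.

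The most abundant Merick-high genes belonged to the leading genes of the female libraries as well. LOC115714527, given above, stood at 4820 to 9223 CPM in females, so that the Merick male at 7427 CPM lay within their range and the Knox and Madison males at least 5-fold below it. LOC115708105 on chromosome 1 had 4293 CPM in the Merick male against 92.3 CPM in Knox and 184 in Madison, and LOC115724972 on chromosome 6 at 3269 against 146 and 215 CPM. For both, the Merick male again lay within the female range, at 2214 to 5344 and 2382 to 3925 CPM. LOC115716971 on chromosome 5 had 3442 CPM in the Merick male, 95.9 in the Knox male and 347 in the Madison male. LOC115701758 on chromosome 8, listed as a ribosomal RNA gene, was at 4326, 564 and 847 CPM, males in the same order. Ribosomal RNA genes have near-identical copies, so the value of this gene is uncertain.

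Ranked by ratio among genes of at least 50 CPM in the Merick male, 2 genes stood far above the rest. LOC115697801, a long non-coding RNA on chromosome 7, had 175 CPM in the Merick male from 8062 counts, 0 counts in the Knox male and 6 in the Madison male. Its ratio to Madison was 1198 (95% interval from counting error 550 to 3264). No female had a count of it, so a substantial level was seen in 1 library of the 6. LOC115723301, protein coding on chromosome 9, had 81.4 CPM in the Merick male from 3749 counts and 1 count in each of the Knox and Madison males, a ratio to Knox of 3284 (589 to 129745). Among females it had 37.6 CPM in Knox, 12.3 in Madison and 0 counts in Merick, so the Merick male and the Merick female lay at opposite ends.

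The remaining 8 genes of this ranking were between 46.5 and 78.7 times higher in Merick than in the nearer male. LOC115712629 on X had 283 CPM in the Merick male, 2.70 in the Knox male and 5.17 in the Madison male. LOC115706501 on chromosome 1 stood at 147, 2.31 and 1.46 CPM and LOC115709818 on chromosome 3 at 130, 2.48 and 2.17 CPM. Each of these had at least 38.97 CPM in every female. LOC115707962 on chromosome 1 stood at 91.3, 1.74 and 1.54 CPM, and the females were alike at 127 to 130 CPM. LOC115707813 on chromosome 1 stood at 63.4, 1.36 and 0.76 CPM, LOC115713958 on chromosome 4 at 52.7, 0.62 and 0.71 CPM, and LOC115715930 on chromosome 5 at 50.7, 0.64 and 0.19 CPM. LOC115710128, which the gene table does not hold, stood at 51.3, 0.82 and 0.68 CPM. Of the 15 named Merick-high genes, every female was above both the Knox and the Madison male for 13, the exceptions being LOC115697801 and LOC115723301. Both males were below every female for 35.2% of all compared genes. Because the named genes were picked for low values in those males, that count is in large part set by the choice. The Merick male lay within the female range for 6, above it for 8 and below it for 1.

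**Figure D3:**
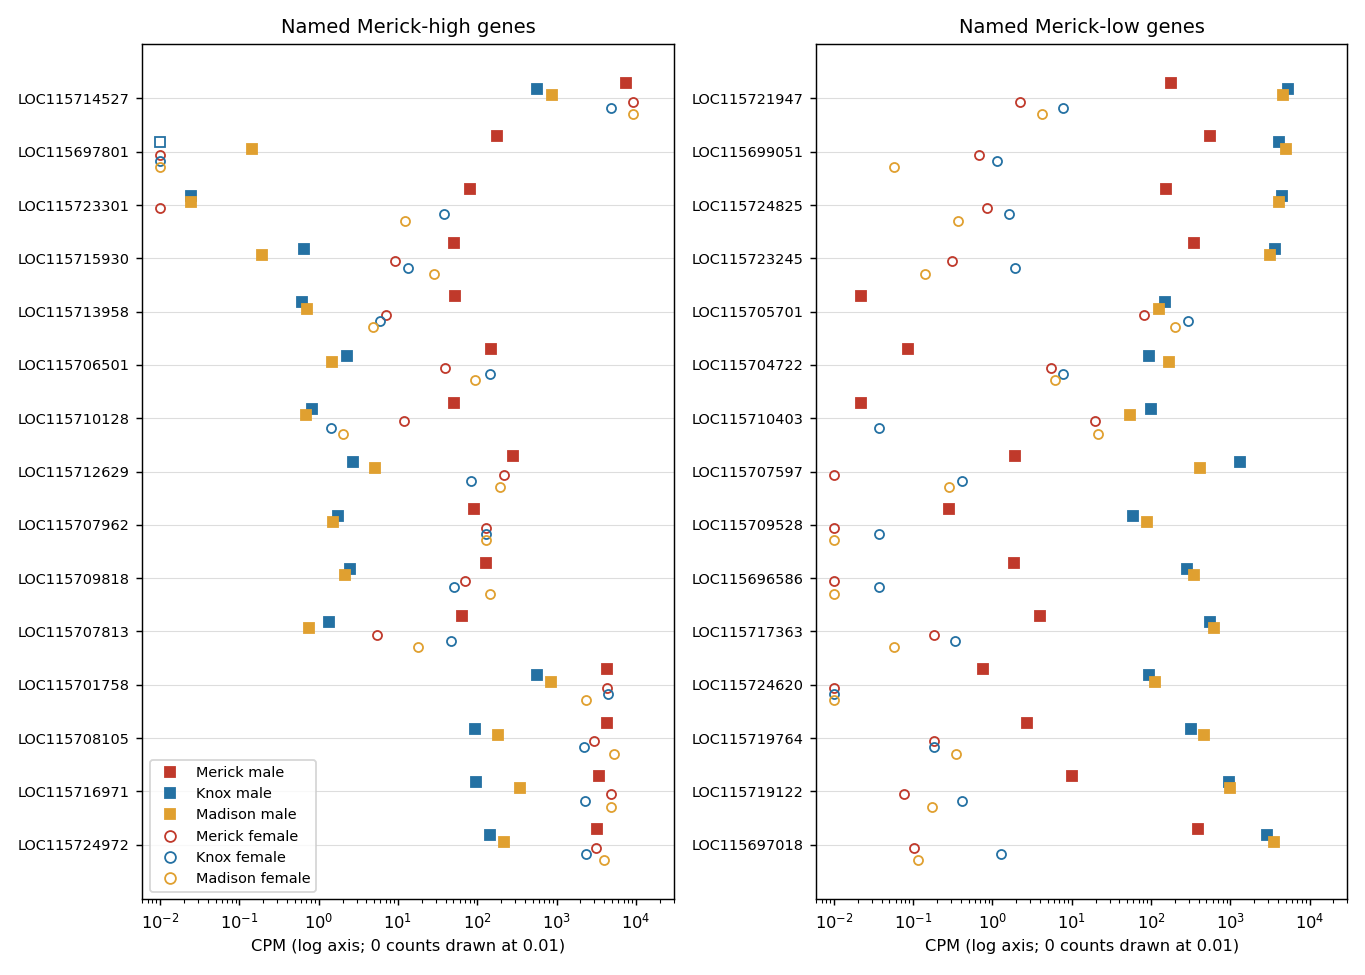
Levels in each library (CPM, log axis, 0 counts drawn at the left edge) of the 15 named Merick-high and 15 named Merick-low genes, with squares for males (open at 0 counts) and open circles for females. Among Merick-high genes the red square of the Merick male lies within the range of the female circles for 6 genes, to their right for 8 and to their left for 1. Among Merick-low genes it mostly lies between the female circles on the left and the Knox and Madison squares on the right.

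The most abundant Merick-low genes were among the leading genes of the Knox and Madison males and nearly absent from females. LOC115721947 on chromosome 9 had 178 CPM in the Merick male, 5333 in the Knox male and 4675 in the Madison male, with females at 2.20 to 7.87 CPM. LOC115724825 on chromosome 6 stood at 153, 4542 and 4161 CPM. In both, the Merick male was over 25-fold below the nearer male and over 20-fold above every female. LOC115699051 on chromosome 8 stood at 548, 4126 and 5025 CPM, LOC115723245 on chromosome 9 at 349, 3682 and 3193 CPM, and LOC115697018 on chromosome 6 at 394, 2912 and 3583 CPM. No female exceeded 1.93 CPM for these 3 genes. All 5 are listed as protein coding, and the ratio of Knox to Madison was between 0.813 and 1.15 for each.

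Ranked by ratio, with both other males at 50 CPM or more, the first gene was LOC115705701, protein coding on chromosome 1. It had 1 count in the Merick male, 0.022 CPM, against 148 CPM in Knox and 127 in Madison, a ratio of 5836 to Madison (1047 to 230545). It was no male gene, since females stood at 81.7 to 290 CPM, and the Merick male was the 1 library without it. LOC115710403, a long non-coding RNA on chromosome 9, also had 1 count in the Merick male, against 101 CPM in Knox and 54.3 in Madison. Its females were split, at 19.7 CPM in Merick, 21.7 in Madison and 0.037 in Knox. LOC115704722 had 4 counts in the Merick male against 95.2 CPM in Knox and 168 in Madison, with females at 5.48 to 7.76 CPM.

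The other 7 genes of this ranking were present in Merick at a low level and at most 0.41 CPM in females. LOC115719122 on chromosome 2 had 10.1 CPM in the Merick male, 974 in the Knox male and 986 in the Madison male. LOC115717363 on chromosome 5 stood at 4.04, 553 and 624 CPM and LOC115719764 on chromosome 2 at 2.76, 316 and 467 CPM. LOC115707597 differed between Knox and Madison too, at 1.93, 1340 and 421 CPM. LOC115696586 on chromosome 7 stood at 1.85, 281 and 352 CPM, LOC115724620 on chromosome 6 at 0.76, 93.9 and 112 CPM, and LOC115709528 on chromosome 3 at 0.28, 60.1 and 87.8 CPM. Over the 15 named Merick-low genes, the Knox and Madison males were above every female for 14, LOC115705701 being the exception. Both were above every female for 34.1% of all compared genes, and picking genes high in those males in large part sets the count. The Merick male was above every female for 12 and below every female for LOC115705701, LOC115704722 and LOC115710403. For LOC115710403 the Merick male and the Knox female had 1 count each, so their order rests on library size alone.

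At the 4-fold limits, LOC115724567 was just inside Merick-high with 47.9, 12.0 and 11.7 CPM in Merick, Knox and Madison, and LOC115715020 was just outside with 33.2, 5.45 and 8.31 CPM. LOC115702742 on X was just inside Merick-low with 15.4, 61.8 and 65.04 CPM, and LOC115707021 was just outside with 16.6, 136 and 66.1 CPM.

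Some genes were at the counting floor on 1 side. With at most 3 counts in the Merick male and at least 10 CPM in both others there were 12 genes (0.0679% of those compared), of which 8 had 0 counts in Merick. LOC115719348 on chromosome 2 had 64.2 CPM in the Knox and 26.2 in the Madison male and 0 counts in the Merick male, at least 402-fold lower than Madison against a floor of 3 counts per library. It also had 0 counts in every female, as had LOC115708615, at 32.1 CPM in Knox and 19.1 in Madison. LOC115695589 on chromosome 6 had 726 CPM in the Madison male, 19.3 in the Knox male and 0 counts in the Merick male. LOC115703030 and LOC115708216 had 0 counts in the Merick male and 12.8 to 41.7 and 2.20 to 22.9 CPM in females. The gene table does not hold 7 of the 12 genes, whereas it lacks 7.4% of all compared genes.

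The reverse, at most 3 counts in each of Knox and Madison and at least 10 CPM in Merick, held for 7 genes (0.0396%). Besides LOC115723301 they were LOC115697891, LOC115697946, LOC115708812, LOC115712413, LOC115720997 and LOC115721310, the last 2 described below. LOC115712413 had 14.5 CPM in the Merick male and 0 counts in both others, at least 195-fold higher, with 4.86 CPM in the Merick, 0 counts in the Knox and 43.3 CPM in the Madison female. LOC115708812 on chromosome 3 had 18.4 CPM in the Merick male, 0 counts in the Knox male and 1 in the Madison male, and among females 9.85 CPM in Madison, 1 count in Knox and 0 counts in Merick. LOC115697946 on chromosome 9 had 12.7 CPM in the Merick male, 1 count in the Knox male and 0 in the Madison male. The Merick female had 0 counts of LOC115708812, LOC115723301, LOC115720997 and LOC115721310.

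Genes of a list often had another of the list beside them. Of 1172 Merick-high genes placed on a chromosome of the Pink pepper assembly, 269 (22.95%) had another Merick-high gene as the next compared gene, against 13.8% of all 16136 placed genes that lay next to one. For Merick-low the values were 140 of 809 (17.3%) against 9.69%, and for even genes 384 of 1663 (23.1%) against 19.5%. Adjacent genes can be near-identical copies, and their counts are then uncertain.

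The longest run was 8 Merick-high genes in a row on chromosome 2, all protein coding, picked out after its values were seen. In the order of the table they are LOC115720979, LOC115720517, LOC115721315, LOC115721306, LOC115720997, LOC115718471, LOC115721310 and LOC115718728. The table places 2 further genes among them that have no row in the counts. In the Merick male the 8 genes stood at 3.91 to 35.3 CPM and summed to 4648 counts. The Knox male had 100 counts over the run, 92 of them in LOC115720979, and the Madison male had 14. Apart from LOC115720979, no gene of the run had more than 4 counts in either of those males, and 4 genes had none in both.

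In females the run was not a Merick trait. The Knox female had counts in all 8 genes, 470 in sum and 0.59 to 4.68 CPM, below the Merick male for each. The Merick female had 124 counts, 123 of them in LOC115720979, and 0 counts in 6 of the genes. The Madison female had 86 counts, 67 in LOC115720979. The next gene after the run, LOC115718726, was below the level for comparison but had 2.45 CPM in the Merick male, 0 counts in both others and 0.59 CPM in the Knox female. Nearby, LOC115718725 had 64.8 CPM in the Merick male, 82.5 in the Knox and 73.9 in the Madison male, within 1.5-fold.

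**Figure D4:**
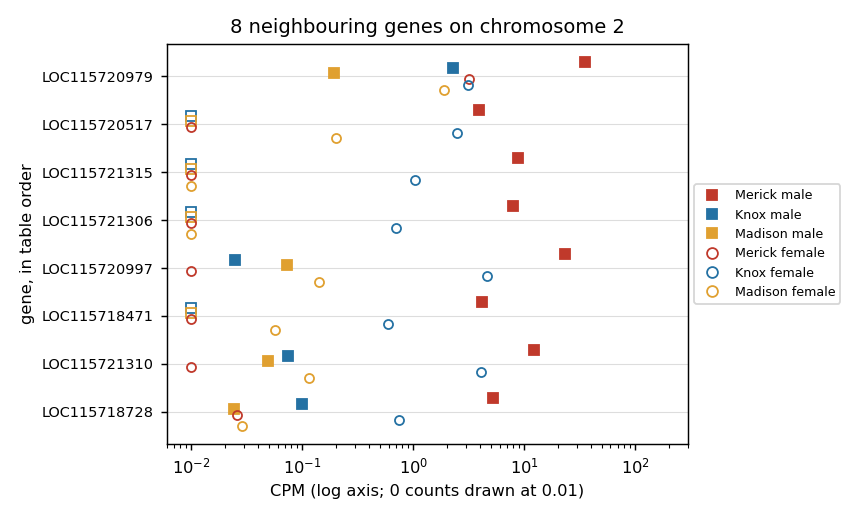
Levels in each library (CPM, log axis, 0 counts drawn at the left edge) of the 8 neighbouring Merick-high genes on chromosome 2, from top to bottom in table order, with squares for males (open at 0 counts) and open circles for females. The Merick male lies at 3.91 to 35.3 CPM and the Knox female is second for each gene except where the top gene has several libraries near 3 CPM.

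The longest Merick-low run was 4 compared genes on chromosome 6, also picked out after its values were seen. The gene table places further genes, not compared here, between LOC115694822 and LOC115695476. LOC115694822 had 73.5 CPM in the Merick male, 2074 in the Knox male and 2018 in the Madison male, and LOC115695476 at 34.9, 1733 and 1742 CPM. Both had at most 1.16 CPM in any female. LOC115725094, at 129, 770 and 854 CPM, was present in females at 133 to 196 CPM, and LOC115724870, at 0.35, 3.20 and 1.56 CPM, was at 1.71 to 6.57 CPM in females, a range that overlaps the males. By chromosome the shares of the lists varied little. Merick-high genes made up between 6.10% of compared genes on chromosome 1 and 9.22% on chromosome 7, and Merick-low genes between 4.20% on X and 6.03% on chromosome 9. X held 12.2% of placed Merick-high genes, 10.3% of Merick-low genes and 12.2% of all compared genes.

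Of Merick-low genes, 39 (4.08%) were long non-coding RNAs, against 1.18% of Merick-high, 0.456% of even and 1.71% of all compared genes. The gene table lacked 14.1% of Merick-low, 7.05% of Merick-high and 3.53% of even genes. Knox and Madison were within 2-fold of each other for 889 Merick-high genes (69.7%) and 750 Merick-low genes (78.5%), against 83.5% of all. Where Merick was high, the Knox male was below the Madison male for 856 genes (67.1%), against 45.9% of all compared genes. Where Merick was low, it was below Madison for 434 (45.4%).

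The female libraries played no part in choosing the lists, but the male values set beside them here did. Merick-high genes held 17.95% of gene counts in the Merick female, 11.9% in the Knox female and 14.7% in the Madison female, next to the 12.2% of the Merick male. Merick-low genes held 0.79%, 2.42% and 1.69% there, next to 1.26% in the Merick male. For 1121 Merick-high genes (87.85%) the Knox and Madison males were both below every female, which held for 35.2% of all compared genes. For 777 Merick-low genes (81.4%) they were both above every female, against 34.1% of all. Because the lists were chosen for low or high values in those males, these shares are in large part set by the choice, and nothing is read from them. The Merick male itself lay within the female range for 518 Merick-high genes (40.6%) and 229 Merick-low genes (23.98%), against 32.5% of all. At most 3 counts over all females were found for 133 Merick-low genes (13.9%) and 21 Merick-high genes (1.65%), against 2.29% of all. Choosing the lists by male values can in part set these shares too.

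**Figure D5:**
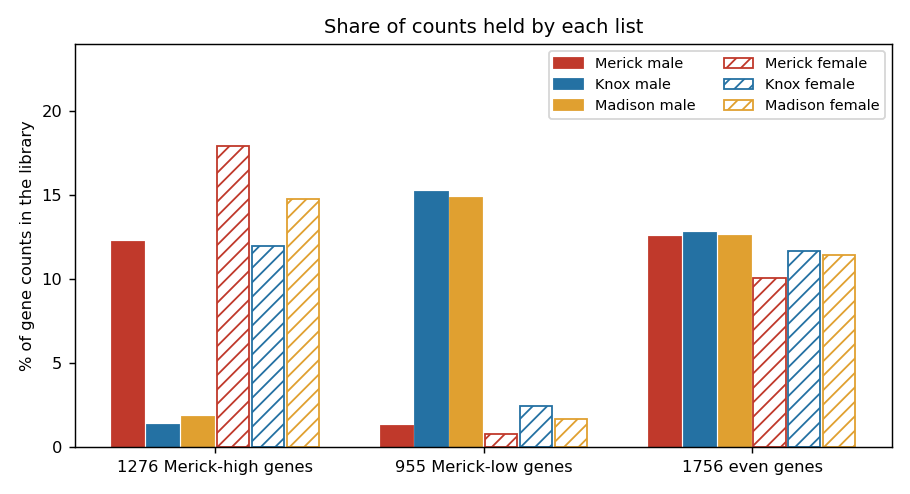
Share of each library's gene counts (%) held by the 1276 Merick-high, 955 Merick-low and 1756 even genes, with filled bars for males and hatched bars for females. For both Merick lists the bar of the Merick male is of the size of the female bars (12.2% beside 11.9% to 17.95%, and 1.26% beside 0.79% to 2.42%). The bars of the Knox and Madison males are not, a gap that the choice of the lists sets. The values of the Merick male also entered that choice, so nothing is read from its likeness to the females. Gene by gene, the Merick male lay within the female range for 40.6% of Merick-high and 23.98% of Merick-low genes, against 32.5% of all.

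The Merick female shares the location label of the Merick male. It was at least 4-fold above both other females for 22 Merick-high genes (1.72%), against 0.832% of all compared genes, and at least 4-fold below both for 46 (3.61%), against 3.6%. Of Merick-low genes, 107 (11.2%) were that far below in the Merick female, against 3.6% of all, and 19 (1.99%) that far above, against 0.832%. Most members of either list were thus not set apart in the same direction in the Merick female. For both lists the share that were lay above that of all compared genes. So did the share of Merick-low genes in the opposite direction. The compared genes were not filtered on female level, so some of these calls can rest on few counts.

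The gene table gives a common name to 6 genes of the counts, and the Merick male was the highest male for each. The share of all compared genes with Merick as the highest male was not counted, so nothing is read from that. CBDAS (LOC115697762), which forms cannabidiolic acid, had 75.2 CPM in the Merick male, 0.50 in the Knox and 2.66 in the Madison male, and the polyketide synthase locus listed as PKSF3, PKSG2 and PKSG4 (LOC115699293) at 54.6, 2.11 and 8.24 CPM. TPS1 (LOC115716064), a terpene synthase, stood at 50.8, 0.72 and 5.09 CPM. OAC (LOC115723438), olivetolic acid cyclase of the cannabinoid pathway, stood at 23.4, 1.54 and 4.09 CPM. These 4 were Merick-high, as were 7.22% of all compared genes. The Merick male was below every female for CBDAS (80.2 to 261 CPM) and OAC (49.8 to 409 CPM), and within the female range for TPS1 (3.31 to 61.5 CPM) and LOC115699293 (47.1 to 89.9 CPM). CHS (LOC115724170), chalcone synthase of flavonoid synthesis, stood at 639, 148 and 225 CPM, 2.84-fold above the nearer male and so not on the list. In all 5 the Knox male was lowest. LOC115696884, listed as CBDAS2, CBDAS3 and THCA5, had 10 counts in the Merick male and 0 in the other males. The cannabinoid synthase genes resemble each other closely, which makes these counts uncertain. The mitochondrial ribosomal RNAs differed less: rrnS stood at 122, 71.5 and 45.4 CPM, rrnL at 114, 77.6 and 108 CPM, and rrn5 at 0.50, 0.50 and 0.58 CPM.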

How the data were processed

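Each library came as a deposited table of raw counts over 29777 gene rows, with 5 closing rows for unassigned reads named as htseq-count names them. The sources used here do not give the aligner, build, annotation or strand setting, so overlapping and antisense genes are uncertain. The closing rows (15.3% to 18.1% of listed reads in males) were left out. CPM used the plain sum of gene counts. With 1 library per location and sex, no test was run and no p-value is given. Ratio intervals are exact conditional binomial 95% intervals. No pair of males agreed within sampling noise (chi-square per degree of freedom 139 to 959). Members and lists were chosen with earlier results of these data known.

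Named genes were the 10 with the highest mean, the 8 most abundant even genes, 10 Merick-high and 10 Merick-low by ratio (at least 50 CPM), 5 of each by mean level, those beside each limit, and those with a common name. The 4-gene and 8-gene runs, their flanking genes and the genes at the floor were named after their values were seen. Planned descriptions of protein patterns and promoters needed sequences not used here. Alternatives were TMM (edgeR 4.0.16) and median-of-ratios scaling (DESeq2 1.42.0), other filters and limits, and leaving out a male. The list rules were checked on simulated data. Python 3.11.15, pandas 2.3.3 and R 4.3.3 were used.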

Additional observations from a re-analysis of the deposited data

Results flagged for a closer look

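LOC115723301 had opposite differences between Merick and the other locations in the sexes. The log2 ratio of Merick to the mean of the other libraries was 10.1 in males, where the levels were 81.4 CPM in Merick, 0.025 in Knox and 0.024 in Madison. It was -8.33 in females, where Merick had 0 counts, Knox 37.6 CPM and Madison 12.3 CPM. The difference of 18.4 was not tested, and both ratios depend on the floor of 3 counts. Over all compared genes 65 had such opposite differences past 4-fold, of which 46 were high in the Merick male and low in the Merick female. Those 46 are 3.61% of Merick-high genes, and 3.6% of all compared genes were that far below in the Merick female, so the pattern was no more frequent among Merick-high genes than among compared genes at large. The other 19 are 1.99% of Merick-low genes, against 0.832% of all compared genes that far above in the Merick female.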

How the results depend on the processing

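Counts of genes moved mostly with the limits that define them, which follows from their construction. TMM scaling gave 1135 Merick-high and 1033 Merick-low genes and median-of-ratios scaling 1081 and 1052; all of the former were among the 1276, and both settings held all 955. The median log2 ratio of Merick to the mean of the others over all compared genes was 0.10 with plain CPM, 0.0019 with TMM and -0.038 with median-of-ratios scaling. Under a mean of at least 10 CPM there were 577 Merick-high and 624 Merick-low genes, 1 gene at the floor in both other males, and 1805 (Merick and Knox), 1424 (Merick and Madison) and 297 (Knox and Madison) genes past 4-fold; the Merick male was then within the female range for 44.0% of Merick-high and 15.4% of Merick-low genes. With no filter, 1913 genes were past 4-fold between Knox and Madison and that share of Merick-low genes was 29.5%. With a 2-fold limit the lists held 3398 and 2166 genes, the pairs 7563, 7058 and 2917, and the Merick-low share was 27.2%. With an 8-fold limit they held 472 and 550 genes, the pairs 1817, 1382 and 510, and the Merick-high share was 36.6%. On log2(CPM + 1), 510 genes were past 4-fold between Knox and Madison and the Merick-low share was 16.8%. An evenness limit of 1.1 left 330 genes and one of 1.5 gave 4613.

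Leaving out a male loosens each rule. Merick-high counts were 1790 to 2275 and Merick-low counts 1140 to 1354, the larger without the Madison male. Even genes were 3882 to 8448, the last without the Merick male. Genes at the floor were 25 to 32 in the Merick male and 14 to 34 in the other male. The Merick-low share within the female range was 26.1% to 28.0%. No paired analysis was possible because the males were compared only with each other, 1 library against 1, and no test was run; a male and a female share each location label, but no comparison here is between the sexes over locations. The log2 ratio of Merick to the mean of the others changed sign for 1 named gene, the even gene LOC115714371, at 0.074 with plain CPM, -0.027 with TMM and -0.067 with median-of-ratios scaling; no other gene named by level, ratio or limit changed sign under either scaling, and genes with a common name were not rescaled. Descriptions of protein patterns and promoters were not run. Counting error limits genes near 1 CPM.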
